A study of Mus musculus with 12 samples.

Results

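Glycolysis, the pentose phosphate pathway and the TCA cycle break down glucose for energy and for building blocks. In cultured oligodendrocyte precursor cells (OPCs), 45 genes of these routes were followed, of 45563 gene symbols with values. They were taken by name, from a list drawn up with earlier results of these data known: 22 genes of glycolysis and of glucose and lactate transport, 6 of the pentose phosphate pathway and 17 of the TCA cycle. OPCs are the glial cells that divide and later form myelin. Bulk RNAseq was performed on 12 libraries in 4 groups of 3. WT and germline TNFR2-/- OPCs, all labelled C57BL/6, came from the cortices of postnatal day 2 to 5 pups and were picked with PDGFRα beads. TNFR2 is a receptor for TNF, and the TNFR2-/- mice carry the deletion in every cell, not in OPCs alone. After 3 days in vitro, cells received vehicle (NS, non-stimulated) or a cocktail of TNF, IFNγ and IL1β at 25 ng/mL each for 3 h (St, stimulated). The groups were thus WT NS, WT St, TNFR2-/- NS and TNFR2-/- St, and nothing in the labels says whether the 3 libraries of a group came from separate animals, so p-values measure the spread between these libraries.

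Glucose enters OPCs through the facilitative transporters encoded by Slc2a1 (GLUT1) and Slc2a3 (GLUT3). Hexokinase traps it, phosphofructokinase commits it to glycolysis, and the enzymes down to pyruvate kinase yield pyruvate, which lactate dehydrogenase exchanges with lactate and monocarboxylate transporters carry across the membrane. The pentose phosphate pathway branches off after hexokinase and gives NADPH and ribose. Pyruvate that enters mitochondria feeds the TCA cycle, whose dehydrogenases supply electrons to respiration. In the oligodendrocyte lineage these routes are known for fuelling lipid synthesis for myelin and for delivering lactate to axons.

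Library depth ranged from 26886878 to 30335265 read pairs. Expression was deposited as FPKM, fragments scaled to gene length and library size, and replicates are given below in the order 2, 3 and 4 for WT and 2, 4 and 5 for TNFR2-/-. The targeted gene, Tnfrsf1b, had 0.155, 0.138 and 0.248 FPKM in WT NS and 3.31, 3.54 and 2.17 FPKM in TNFR2-/- NS, so it was higher in the libraries labelled TNFR2-/-. A value per gene does not say which exons its reads came from, and this gene therefore does not check the genotype labels. All 7 OPC markers were detected, with a summed level of 10786 to 13273 FPKM in the NS libraries and 8190 to 9179 FPKM in the St libraries, and 5 of 6 microglia markers had under 20 reads in every library. Sums of marker FPKM weigh each gene by its deposited length, so they compare libraries and not cell types. Summed over 6 astrocyte markers, the level was 7536 to 8420 FPKM in WT NS, 10499.7 to 15586 FPKM in TNFR2-/- NS, 7148 to 7323 FPKM in WT St and 9774 to 14613 FPKM in TNFR2-/- St. This sum was thus higher in every library labelled TNFR2-/- than in any WT library. Slc1a3 and Aldoc, which made up most of it on the deposited scale, and Gja1 were so as well. Aqp4 and Gfap were higher in every library labelled TNFR2-/- than in any WT library of the same condition. Their ranges overlapped only where TNFR2-/- NS was set against WT St. Aldh1l1 overlapped between the genotypes in NS, with 60.5 FPKM in TNFR2-/- NS replicate 4 and 62.3 FPKM in WT NS replicate 2. Gfap, which had 6.23 to 42.5 FPKM in the 10 libraries of the other cultures, reached 231 FPKM in TNFR2-/- NS replicate 5. Summed over 5 neuron markers, the level was 82.9 to 125 FPKM in the NS libraries and 473 to 575 FPKM in the St libraries, and Tubb3 alone accounted for 41.6 to 76.9 and 417 to 539 FPKM of these sums. In bulk libraries, fewer cells of a type and less RNA per cell cannot be told apart.

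All 45 members passed the filter on low values. Levels can be set side by side between genes only per length, so reads recovered from FPKM were divided by the gene's annotated exon length and by library size (length-scaled reads). That length joins the exons of all annotated transcripts of a gene, and orders between genes depend on it. On that scale the most abundant members in WT NS were Gapdh at 285 ± 26.8, Pkm at 242 ± 16.1, Aldoa at 209.8 ± 15.7 and Eno1 at 179 ± 12.5 (mean ± SD, n = 3). These are the enzymes of the lower, energy-yielding stretch of glycolysis, together with aldolase. Gapdh, Pgk1, Pgam1 and Eno1 share 20.9%, 51.7%, 33.9% and 20.4% of their 100-base stretches with other annotated genes, such as related copies, and Pgls, Pfkfb2 and Pkm share 17.3%, 15.2% and 12.3%, so their values are less certain. The symbol Aldoa names 2 annotated genes, and its level per length rests on the exons of both joined, so its value and rank are less certain too. In the TCA cycle, Cs (citrate synthase) stood highest at 132 ± 5.91, followed by the malate dehydrogenases Mdh1 at 128 ± 4.78 and Mdh2 at 116 ± 5.11, and Cs and Mdh1 did not differ beyond their spread. The lowest TCA member was Suclg2 at 18.1 ± 1.85. In the pentose phosphate pathway the order ran from Taldo1 (transaldolase) at 75.9 ± 2.81 and Tkt (transketolase) at 59.4 ± 0.551 down to Rpia (ribose phosphate isomerase) at 6.30 ± 0.245. G6pdx, the enzyme that opens the oxidative branch, lay between them at 27.9 ± 2.42.

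Where several isozymes serve the same step, naïve WT OPCs held them at unequal levels. Hk1 had 20.96 ± 0.362 and Hk2 3.60 ± 0.666 length-scaled reads. Slc2a1 had 26.8 ± 3.13 and Slc2a3 9.15 ± 0.461. Pfkm had 54.5 ± 3.72, against 9.75 ± 1.20 for Pfkp and 6.88 ± 0.891 for Pfkl. Hk1, Slc2a1 and Pfkm were thus the prevailing isozymes of their steps before stimulation. Ldhb, the dehydrogenase subunit of lactate-consuming tissues, had 171 ± 8.35 length-scaled reads and Ldha 102 ± 9.97. Before length scaling Ldha had more reads in WT NS, with 10381, 8085 and 10940 against 8425, 6847 and 8123 for Ldhb. Their order therefore rests on the exon lengths, 3310 bases for Ldha and 1570 for Ldhb. The transporter Slc16a1 (MCT1) had 37.5 ± 1.23, while Slc16a3 (MCT4), with 11 to 27 reads per library, was near the limit of detection and its changes could not be read at this depth.

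**Figure D1:**
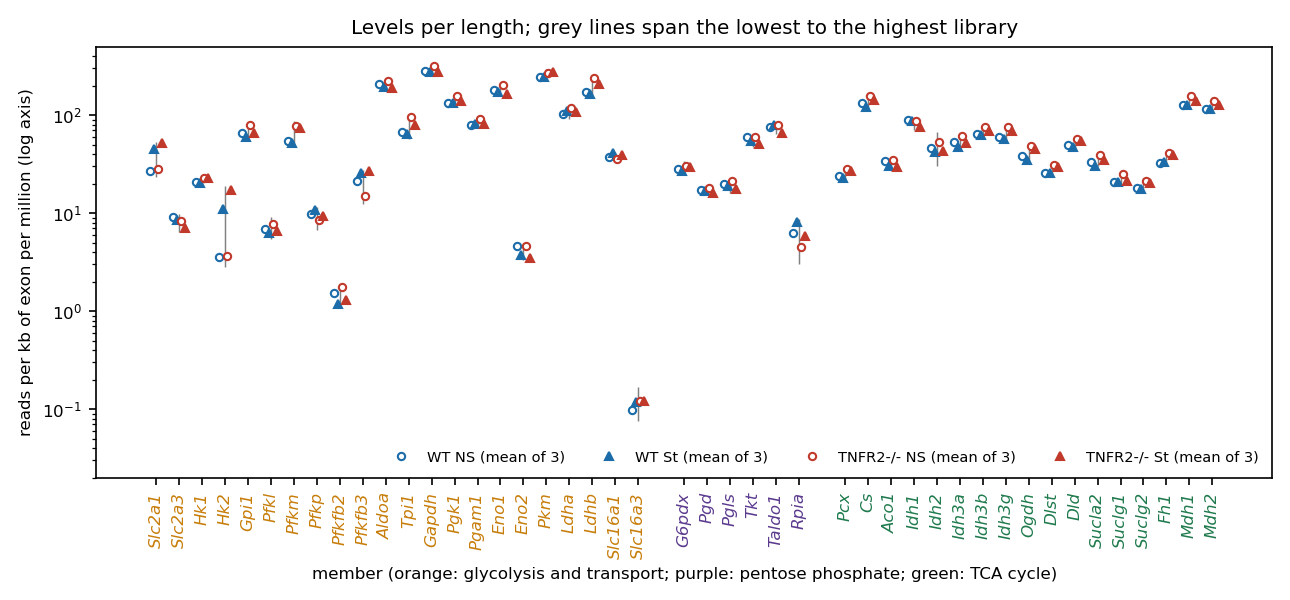
Mean level of each of the 45 members in the 4 groups (3 libraries each), as length-scaled reads (per kilobase of exon and library size) on a log axis, with grey lines from the lowest to the highest of the 12 libraries. Most members lie at similar levels in the 4 groups, from Gapdh at the top to Slc16a3 at the bottom, and Hk2 spans the widest range of the well-detected genes named here, from 3.60 ± 0.666 in WT NS to 17.2 ± 2.63 in TNFR2-/- St.

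The first question was what 3 h of cytokines did to these routes. The entry to glycolysis rose in both genotypes: Slc2a1, which imports glucose, and Hk2, the inducible hexokinase, were higher in every St library than in any NS library of the same genotype. Pfkfb3, which makes the strongest activator of phosphofructokinase, passed the test in TNFR2-/- OPCs and not in WT. The steps after phosphofructokinase, and the TCA cycle as a whole, had no member that rose past the test on the deposited scale in the fit of group means. A gene was past the test where limma gave an adjusted p (Benjamini-Hochberg) no higher than 0.05. It was differentially expressed where it also changed at least 1.5-fold at a mean of 1 FPKM or more. Fold changes below are of log2(FPKM + 0.5) and are given ± SE, with 3 libraries in each group. The comparisons share libraries (WT NS, for example, is the base of both the WT response and the genotype difference at rest), so their values are set side by side only.

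Hk2 (GRCm38 chromosome 6, 82725025 to 82774454) had 13.2, 9.58 and 13.7 FPKM in WT NS and 40.8, 30.9 and 40.6 FPKM in WT St. In TNFR2-/- OPCs it had 14.4, 12.04 and 10.5 FPKM in NS and 64.01, 47.9 and 62.4 FPKM in St. The stimulated libraries lay far above the unstimulated ones in both genotypes, and the highest values were those of TNFR2-/- St. The log2 fold change was 1.59 ± 0.18 (adjusted p = 0.000122) in WT and 2.19 ± 0.18 (adjusted p = 8.13e-06) in TNFR2-/-. Per length, Hk2 came from well below Hk1 to 11.1 ± 1.67 in WT St and 17.2 ± 2.63 in TNFR2-/- St, against 20.2 ± 0.122 and 22.7 ± 1.05 for Hk1, the constitutive form. Slc2a1 (GRCm38 chromosome 4, 119108711 to 119137983) had 35.8, 30.7 and 38.8 FPKM in WT NS and 52.7, 57.96 and 65.1 FPKM in WT St. It had 44.3, 34.6 and 30.7 FPKM in TNFR2-/- NS and 70.3, 67.9 and 65.1 FPKM in TNFR2-/- St. Again no St library fell within the range of its NS group. The log2 fold change of Slc2a1 was 0.73 ± 0.13 (adjusted p = 0.00352) in WT and 0.90 ± 0.13 (adjusted p = 0.000699) in TNFR2-/-.

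Pfkfb3 (GRCm38 chromosome 2, 11471433 to 11554077) had 29.3, 41.2 and 39.5 FPKM in WT NS and 38.1, 46.7 and 45.99 FPKM in WT St, and these ranges overlapped. In TNFR2-/- it had 28.5, 27.2 and 21.2 FPKM in NS and 47.2, 45.9 and 45.9 FPKM in St, with no overlap. Both genotypes reached about the same stimulated level from a lower start in the libraries labelled TNFR2-/-. The log2 fold change was 0.26 ± 0.14 (adjusted p = 0.294) in WT and 0.85 ± 0.14 (adjusted p = 0.00155) in TNFR2-/-, and the difference between the genotypes in this change, the interaction, was 0.60 ± 0.20 (adjusted p = 0.544). Within replicate numbers, Pfkfb3 was higher in St in 3 of 3 WT and 3 of 3 TNFR2-/- comparisons.

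The sequences just before the start sites of these 3 genes are shown because they are the members that rose past the test, Slc2a1 and Hk2 in both genotypes and Pfkfb3 in TNFR2-/- and not in WT. They come from RefSeq (GRCm38.p6), run 5′ to 3′ on the gene's own strand and stop before the first annotated exon. Slc2a1 lies on the plus strand (chr4:119108495-119108710), and Hk2 (chr6:82774455-82774704) and Pfkfb3 on the minus strand, where Pfkfb3 has an upstream start (chr2:11554078-11554179) and an internal one (chr2:11502102-11502340). Capitals mark matches, on either strand, to a hypoxia response element core (ACGTG or GCGTG) or to an E-box (CACGTG), which overlaps the former.
Slc2a1: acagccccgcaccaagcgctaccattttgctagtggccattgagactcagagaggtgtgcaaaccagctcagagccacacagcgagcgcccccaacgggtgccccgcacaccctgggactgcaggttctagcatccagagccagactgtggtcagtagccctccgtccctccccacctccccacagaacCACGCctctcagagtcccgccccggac
Hk2: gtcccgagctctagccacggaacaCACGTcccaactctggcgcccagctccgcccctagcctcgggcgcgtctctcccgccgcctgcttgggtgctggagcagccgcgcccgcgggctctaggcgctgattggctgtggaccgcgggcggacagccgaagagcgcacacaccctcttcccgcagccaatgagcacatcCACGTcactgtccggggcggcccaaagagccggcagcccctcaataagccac
Pfkfb3, upstream start: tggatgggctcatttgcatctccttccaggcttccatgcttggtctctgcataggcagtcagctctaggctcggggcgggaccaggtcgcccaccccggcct
Pfkfb3, internal start: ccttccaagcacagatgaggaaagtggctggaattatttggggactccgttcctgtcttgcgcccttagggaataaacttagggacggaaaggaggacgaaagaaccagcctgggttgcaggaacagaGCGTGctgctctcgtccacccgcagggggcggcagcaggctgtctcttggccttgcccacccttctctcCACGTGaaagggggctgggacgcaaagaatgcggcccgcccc
In the full window of 250 bases before the start, Hk2 and Slc2a1 each held 2 hypoxia response cores, the upstream Pfkfb3 start held 1 and the internal one 3. Of these 3 matches, 2 overlap in the same CACGTG, read once on each strand. Of all 32851 such windows in the table, 38.6% held at least 1 such core and 6.02% an E-box, which only the internal Pfkfb3 start held here. None of the 4 windows held a gamma-activated site (TTCNNNGAA, in 7.02% of all windows), an interferon-stimulated response element (in 2.98%) or an NF-kappaB motif (in 7.25%). These are letter matches in short windows and describe the sequence alone.

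**Figure D2:**
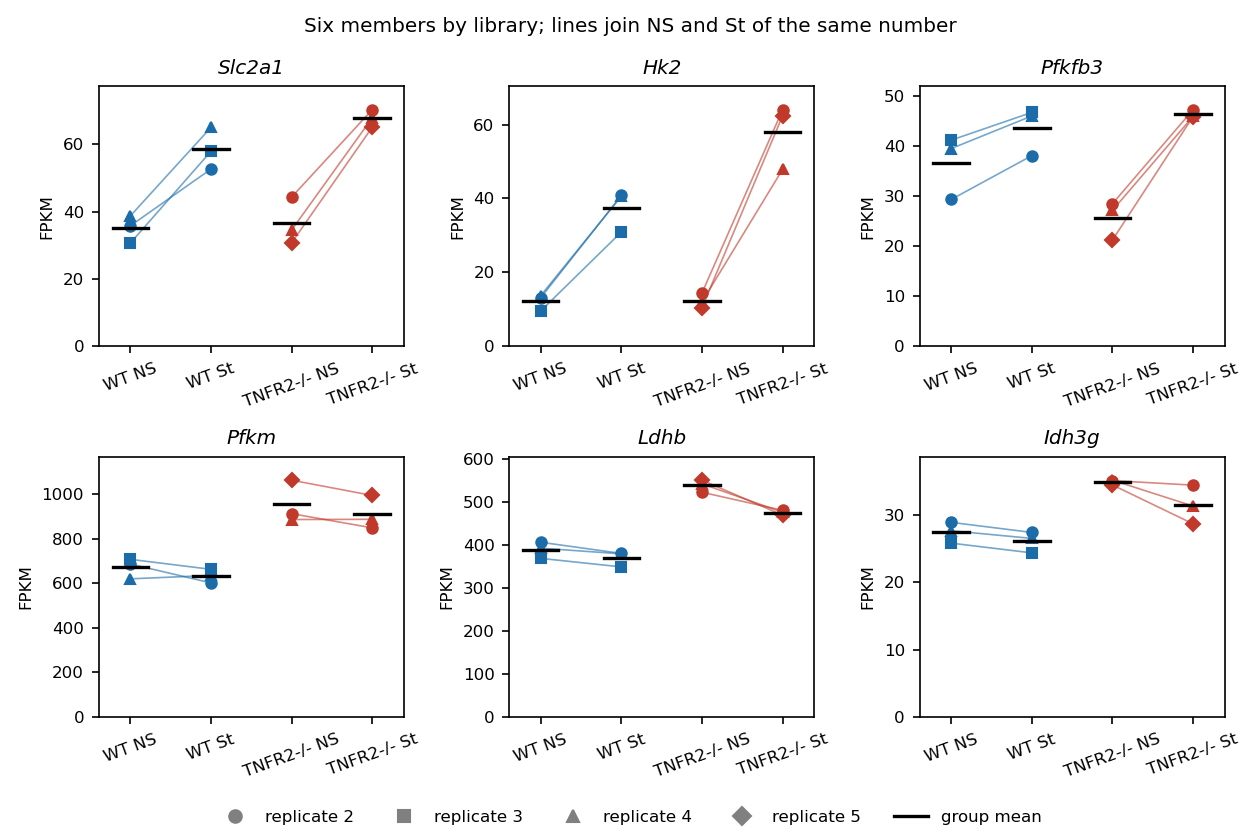
FPKM of 6 members in each of the 12 libraries, with lines joining the NS and St library of the same replicate number and black bars at the group means. Slc2a1, Hk2 and Pfkfb3 climb along all 6 lines, with Hk2 ending between 47.9 and 64.01 FPKM in TNFR2-/- St, while Pfkm, Ldhb and Idh3g differ mainly between the genotypes.

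In WT OPCs, 4 of the 45 members were past the test after stimulation, 2 higher and 2 lower, against 16.1% of all 18081 genes tested (7.7% higher and 8.36% lower) and 20.8% of genes with a mean of at least 250 reads. The share of members past the test was thus below that of all genes. Slc2a1 and Hk2 were the differentially expressed ones, where 7.53% of all genes were. Eno2, the enolase of neurons that glia also make at low level, fell from 32.2, 36.4 and 32.5 FPKM in WT NS to 27.8, 27.03 and 25.99 FPKM in WT St, a log2 fold change of -0.32 ± 0.08 (adjusted p = 0.0219). Aco1, the cytosolic aconitase that also acts as an iron sensor, fell from 49.02, 54.04 and 48.7 FPKM to 43.8, 44.5 and 44.7 FPKM, a log2 fold change of -0.19 ± 0.05 (adjusted p = 0.0382). By pathway, groups of WT libraries did not overlap for 6 of 22 glycolysis, 2 of 6 pentose phosphate and 3 of 17 TCA members, against 37.7% of all genes. The median log2 fold change was -0.04 for glycolysis, -0.04 for the pentose phosphate pathway and -0.07 for the TCA cycle, against -0.05 for all genes, and the first 2 turned to 0.01 each under median-of-ratios scaling. All 3 medians lay close to that of all genes. Members that did not pass the test in WT included the first enzymes of the pentose phosphate pathway and TCA cycle, with -0.05 ± 0.09 (adjusted p = 0.803) for G6pdx, -0.11 ± 0.11 (adjusted p = 0.573) for Cs, -0.15 ± 0.06 (adjusted p = 0.149) for Idh3a, -0.03 ± 0.08 (adjusted p = 0.869) for Idh1 and -0.14 ± 0.10 (adjusted p = 0.435) for Ogdh, and 0.13 ± 0.17 (adjusted p = 0.691) for Slc16a3, which had 11 to 27 reads per library.

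Replicate numbers paired the NS and St libraries within each genotype, so the change was also fitted with the replicate as a block. With the block, 17 members were past the test in WT, 6 higher and 11 lower, against 31.6% of all genes. With the block and median-of-ratios scaling, which centres the libraries on the typical gene, 8 were past, 7 higher and 1 lower, against 27.7%. Those 7 were Slc2a1, Hk2, Pfkfb3, Pfkp (the platelet-type phosphofructokinase), Ldha, Slc16a1 and Rpia, and the member that fell was Eno2. Rpia, for example, had 16.2, 17.1 and 15.9 FPKM in WT NS and 21.98, 22.6 and 19.4 FPKM in WT St, with a log2 fold change of 0.37 ± 0.21 (adjusted p = 0.308) without the block and adjusted p = 0.00658 with it. Slc16a1, the carrier that OPCs use to exchange lactate, had 44.3, 46.4 and 47.2 FPKM in WT NS and 50.04, 50.2 and 51.6 FPKM in WT St, and its log2 fold change of 0.14 had adjusted p = 0.181 without the block and 0.0286 with it. Pfkp, Slc16a1 and Rpia were higher in St within all 6 replicate numbers of both genotypes.

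In TNFR2-/- OPCs, 14 members were past the test after stimulation, 3 higher and 11 lower, against 26% of all genes (9.62% higher and 16.3% lower) and 33.6% of genes with at least 250 reads. Slc2a1, Hk2 and Pfkfb3 were the higher ones, and these 3 were also differentially expressed, where 10.1% of all genes were. Library groups did not overlap for 13 of 22 glycolysis, 4 of 6 pentose phosphate and 6 of 17 TCA members, against 37.3% of all genes. The 11 that fell on the deposited scale did so by small steps, of 0.18 to 0.38 in log2, next to a median of -0.11 over all genes. In glycolysis, Eno1 went from 181, 181 and 177 FPKM to 152, 146 and 137 FPKM, a log2 fold change of -0.31 ± 0.07 (adjusted p = 0.00722). Eno2 went from 35.3, 34.6 and 29.8 FPKM to 26.2, 26.2 and 23.9 FPKM (-0.38 ± 0.08 at adjusted p = 0.00648). Gpi1, the isomerase after hexokinase, went from 3906, 4029 and 3666 FPKM to 3382, 3272 and 3011 FPKM (-0.26 ± 0.08 at adjusted p = 0.0275). The enolases and the isomerase were lower in every St library than in any NS library of the genotype. Aldoa (-0.23 ± 0.07 at adjusted p = 0.0356) and Ldhb (-0.18 ± 0.05 at adjusted p = 0.0281) were the others of glycolysis.

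Among the pentose phosphate members, Tkt and Taldo1 of the non-oxidative branch and Pgls of the oxidative branch fell in TNFR2-/- OPCs. Taldo1 had 473, 529 and 531 FPKM in NS and 414, 437 and 425 FPKM in St, a log2 fold change of -0.26 ± 0.06 (adjusted p = 0.0110), while in WT its value was 0.05 ± 0.06 (adjusted p = 0.718). Tkt had 389, 426 and 408 FPKM and 326, 358 and 354 FPKM (-0.24 ± 0.05 at adjusted p = 0.00714), and Pgls had 37.5, 40.9 and 35.8 FPKM and 32.6, 32.5 and 28.8 FPKM (-0.28 ± 0.07 at adjusted p = 0.0171). All 3 genes had separate NS and St ranges. G6pdx, the gate of the pathway, had a log2 fold change of -0.04 ± 0.09 (adjusted p = 0.776). In the TCA cycle, all 17 members had a negative log2 fold change on the deposited scale, where 33.6% of all genes had a positive one, and 11 of 17 under median-of-ratios scaling. On the deposited scale 3 were past the test: Aco1 (-0.26 ± 0.05 at adjusted p = 0.00483), Idh3a, the catalytic subunit of NAD-dependent isocitrate dehydrogenase (-0.24 ± 0.06 at adjusted p = 0.0176), and Suclg1, a subunit of succinyl-CoA synthetase (-0.25 ± 0.06 at adjusted p = 0.0175). Suclg1 had 100.4, 96.8 and 94.8 FPKM in NS and 87.3, 82.1 and 76.8 FPKM in St, and Idh3a 1155, 1244 and 1102 FPKM and 1031, 1016 and 910.2 FPKM. Cs (-0.15 ± 0.11 at adjusted p = 0.358), Ogdh (-0.10 ± 0.10 at adjusted p = 0.521) and Idh1 (-0.21 ± 0.08 at adjusted p = 0.0693) were not past the test, nor was Slc16a3 (-0.00 ± 0.17 at adjusted p = 0.9995).

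Medians of the log2 fold change in TNFR2-/- were -0.16 for glycolysis, -0.20 for the pentose phosphate pathway and -0.15 for the TCA cycle, against -0.11 for all genes. These shifts were close to that of all genes, and the lower calls depended on the scale. Under median-of-ratios scaling, which brought the median of all genes to -0.02, 4 members were past the test and all 4 were higher, namely Slc2a1, Hk2, Pfkfb3 and Slc16a1. No member then fell past the test, and the pathway medians were -0.04, -0.08 and -0.03 in the same order. With the replicate block, 33 members were past the test, 6 higher and 27 lower, against 45.1% of all genes. With the block and median-of-ratios scaling, 18 were past, 8 higher and 10 lower, against 35.5%. The 10 that fell then were 5 of glycolysis, 3 of the pentose phosphate pathway and 2 of the TCA cycle, and the 8 that rose were 7 of glycolysis and Rpia. The summed OPC marker level was lower in the St libraries than in the NS libraries, as given above, but single markers went both ways. Of the 7 markers, 6 had negative log2 fold changes in WT and 5 in TNFR2-/-. Sox10 rose within every replicate number of both genotypes. The part of OPC marker RNA in these values was not tested.

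**Figure D3:**
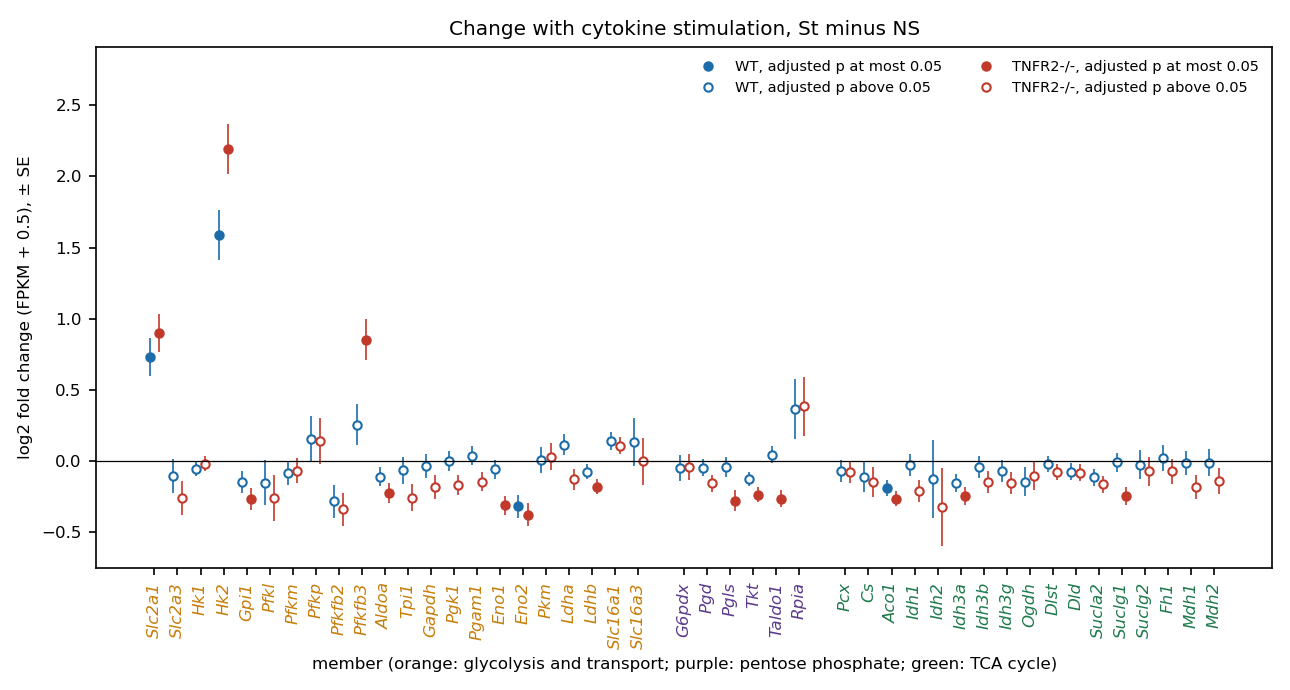
Log2 fold change of each member from NS to St with its SE, in WT and in TNFR2-/- OPCs, with filled points where the adjusted p was at most 0.05. Hk2 and Slc2a1 stand above the rest in both genotypes, with Hk2 at 1.59 in WT and 2.19 in TNFR2-/-, and most other members sit a little below 0, near the median of all genes.

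A direct test of whether the genotypes differed in their response, the interaction of genotype and stimulation, was past the threshold for 0 of the 45 members and for 1 of all 18081 genes (0.00553%). At an unadjusted p under 0.05 there were 7 members, against 7.95% of all genes, and limma on recovered reads (voom) also put 0 past the adjusted threshold. Hk2 differed by 0.60 ± 0.25 (adjusted p = 0.600) and Taldo1 by -0.31 ± 0.09 (adjusted p = 0.496). The interaction was 0.17 ± 0.19 (adjusted p = 0.900) for Slc2a1 and 0.01 ± 0.13 (adjusted p = 0.998) for G6pdx. In the TCA cycle it was -0.03 ± 0.15 (adjusted p = 0.987) for Cs, -0.18 ± 0.11 (adjusted p = 0.735) for Idh1, -0.09 ± 0.09 (adjusted p = 0.867) for Idh3a and 0.04 ± 0.15 (adjusted p = 0.980) for Ogdh, and for Slc16a3 it was -0.13 ± 0.24 (adjusted p = 0.946). With the replicate block, the adjusted p was 0.113 for Hk2 and 0.0968 for Taldo1. The larger values of Hk2, Slc2a1 and Pfkfb3 in TNFR2-/- are therefore given side by side with those of WT and are not shown to differ from them.

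Isozyme ratios of the upper steps rose with the cytokines. Their numerators Slc2a1, Hk2, Pfkfb3 and Pfkp each rose within all 6 replicate numbers, and the members were chosen with earlier results known. The ratio tests are therefore not independent support for the changes of these genes. Within each replicate number, the log2 ratio of a pair of isozymes in St was set against that in NS, 6 changes over both genotypes, and tested with an exact two-sided sign-flip permutation test, whose smallest possible p is 0.03125. The Hk2/Hk1 ratio changed by 1.69, 1.68 and 1.57 in the WT replicates and by 2.11, 1.98 and 2.54 in the TNFR2-/- replicates, a mean log2 change of 1.93 ± 0.36 (SD, n = 6, exact permutation p = 0.03125, 0.0469 adjusted over 6 ratios). The Slc2a1/Slc2a3 ratio rose by 0.999 ± 0.20 (SD, n = 6, exact permutation p = 0.03125, 0.0469 adjusted over 6 ratios) in log2. The ratio of Pfkfb3 to Pfkfb2, another form of this bifunctional enzyme, rose by 0.87 ± 0.38 (SD, n = 6, exact permutation p = 0.03125, 0.0469 adjusted over 6 ratios). Each of these 3 ratios, which belong to uptake, trapping and commitment of glucose, was higher in St in 6 of 6 replicate comparisons. The Pfkp/Pfkm ratio also rose in 6 of 6, by the smaller amount of 0.22 ± 0.13 (SD, n = 6, exact permutation p = 0.03125, 0.0469 adjusted over 6 ratios), and it lost the call when the pairing was dropped (permutation within genotype, adjusted p = 0.282).

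At the lactate end, the ratio of Ldha to Ldhb rose in 5 of 6 replicate comparisons, and its mean log2 change of 0.12 ± 0.10 (SD, n = 6, exact permutation p = 0.0625, 0.0750 adjusted over 6 ratios) missed the threshold. With the pairing dropped, its permutation p adjusted over the 6 ratios was 0.045. The Slc16a3/Slc16a1 ratio was higher in St in 2 of 6 comparisons, with a mean log2 change of -0.06 ± 0.23 (SD, n = 6, exact permutation p = 0.531, 0.531 adjusted over 6 ratios), and rests on the few reads of Slc16a3. Ldha itself had 203, 176 and 214 FPKM in WT NS and 215, 202 and 225 FPKM in WT St, with overlapping ranges. In TNFR2-/- it had 231, 239 and 222 FPKM in NS and 211, 217 and 205 FPKM in St, without overlap. Its log2 fold change was 0.12 ± 0.07 (adjusted p = 0.354) in WT and -0.13 ± 0.07 (adjusted p = 0.227) in TNFR2-/-. These are opposite signs, whose difference is taken up in the closing section.

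**Figure D4:**
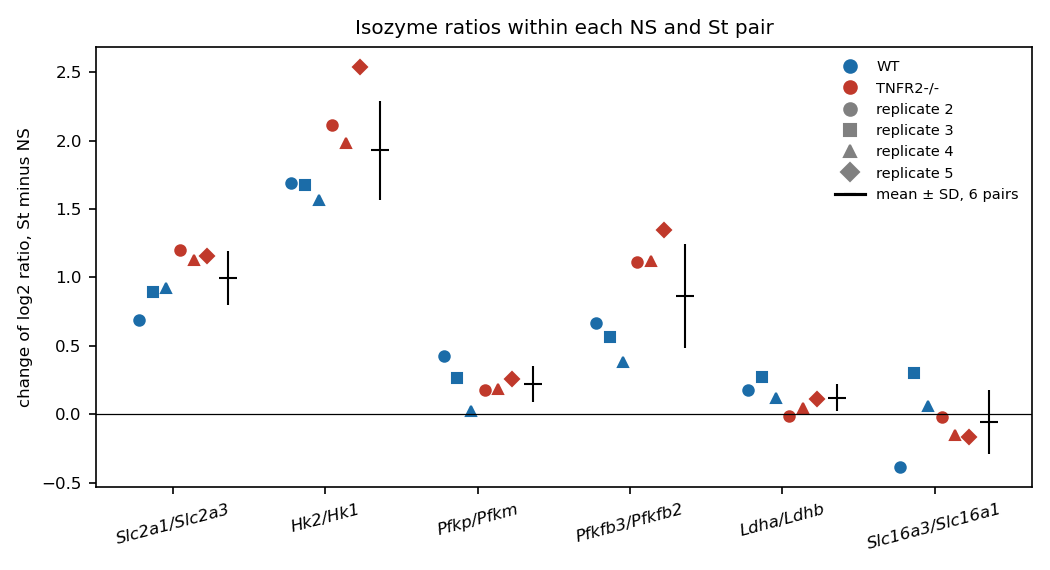
Log2 change from NS to St of 6 isozyme ratios in each of 6 replicate comparisons (blue WT, red TNFR2-/-), with black bars for the mean ± SD. Hk2/Hk1, Slc2a1/Slc2a3, Pfkfb3/Pfkfb2 and Pfkp/Pfkm lie above 0 in all 6, Ldha/Ldhb in 5 of 6, and Slc16a3/Slc16a1 scatters around 0.

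The second question was how TNFR2-/- OPCs differed from WT before any stimulation. Members of the TCA cycle had mostly positive values in TNFR2-/- NS: 16 of 17 had a positive log2 fold change, against 55.9% of all genes, and 6 were past the test and higher, by 0.25 to 0.35 in log2. In glycolysis 17 of 22 were positive, with Pfkm, Tpi1 and Ldhb past the test and higher, and Pfkfb3 past the test and lower. In the pentose phosphate pathway 5 of 6 were positive and none was past the test. In all, 10 of 45 members were past the test, 9 higher and 1 lower, against 10.9% of all genes (6.11% higher and 4.75% lower) and 15.1% of the 10063 genes with a mean of at least 250 reads (8.24% higher). None was differentially expressed by the fold threshold, where 2.9% of all genes were. Library groups did not overlap for 10 of 22 glycolysis, 2 of 6 pentose phosphate and 12 of 17 TCA members, against 34.2% of all genes. Median log2 fold changes were 0.24 for the TCA cycle, 0.15 for glycolysis and 0.06 for the pentose phosphate pathway, against 0.04 for all genes, and under median-of-ratios scaling they were 0.20, 0.11 and 0.02. With that scaling, 2 TCA members rather than 6 were past the test and higher.

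Pfkm, the muscle-type phosphofructokinase (GRCm38 chromosome 15, 98092589 to 98132451), had 687, 708 and 620.2 FPKM in WT NS and 913, 887 and 1064 FPKM in TNFR2-/- NS, which gives 0.50 ± 0.09 (adjusted p = 0.0149) as log2 fold change. Ldhb (GRCm38 chromosome 6, 142490249 to 142507957) had 407, 369 and 393 FPKM in WT NS and 523, 543 and 551 FPKM in TNFR2-/- NS, a log2 fold change of 0.47 ± 0.05 (adjusted p = 0.00380). Both genes were higher in every library labelled TNFR2-/- than in any WT library of the same condition. Tpi1, triose phosphate isomerase (GRCm38 chromosome 6, 124810586 to 124814296), had 53.96, 44.05 and 52.2 FPKM and 71.01, 71.9 and 67.7 FPKM, a log2 fold change of 0.49 ± 0.10 (adjusted p = 0.0190). Pfkfb3, whose values are given above, was lower, with -0.50 ± 0.14 (adjusted p = 0.0493). The other phosphofructokinases did not follow Pfkm, with -0.21 ± 0.16 (adjusted p = 0.425) for Pfkp and 0.17 ± 0.16 (adjusted p = 0.516) for Pfkl. Slc2a1 (0.05 ± 0.13 at adjusted p = 0.848) and Hk2 (0.02 ± 0.18 at adjusted p = 0.952), the members that rose with cytokines, did not differ detectably between genotypes at rest. Ldha (0.22 ± 0.07 at adjusted p = 0.0703), G6pdx (0.12 ± 0.09 at adjusted p = 0.417) and Slc16a3 (0.13 ± 0.17 at adjusted p = 0.633) were not past the test either. Rpia had 16.2, 17.1 and 15.9 FPKM in WT NS and 12.1, 14.9 and 7.90 FPKM in TNFR2-/- NS, without overlap, but was not past the test (-0.52 ± 0.21 at adjusted p = 0.126).

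The 6 TCA genes that were past the test and higher in TNFR2-/- NS on the deposited scale act at steps from isocitrate to oxaloacetate. Idh3g, a regulatory subunit of NAD-dependent isocitrate dehydrogenase (GRCm38 chromosome X, 73778963 to 73786897), had 28.9, 25.8 and 27.7 FPKM in WT NS and 35.1, 35.2 and 34.5 FPKM in TNFR2-/- NS (0.34 ± 0.08 at adjusted p = 0.0270). Dlst, the core of the oxoglutarate dehydrogenase complex, had 182, 177 and 171 FPKM and 219.5, 215 and 203 FPKM (0.27 ± 0.06 at adjusted p = 0.0222). The subunits of succinyl-CoA synthetase followed. Sucla2 had 1141, 1094 and 1083 FPKM and 1331, 1392 and 1237 FPKM (0.25 ± 0.06 at adjusted p = 0.0283), and Suclg1 had 81.4, 79.2 and 81.6 FPKM and 100.4, 96.8 and 94.8 FPKM (0.27 ± 0.06 at adjusted p = 0.0305). Fh1, fumarase, had 41.6, 37.6 and 41.05 FPKM and 53.5, 53.3 and 46.97 FPKM (0.35 ± 0.09 at adjusted p = 0.0373). The ranges of these genes did not overlap between the genotypes. Mdh1, the cytosolic malate dehydrogenase of the malate-aspartate shuttle, had 569, 529 and 557 FPKM and 698, 735 and 607 FPKM (0.30 ± 0.08 at adjusted p = 0.0491). Values that missed the threshold were 0.34 ± 0.10 (adjusted p = 0.0624) for Ogdh, 0.20 ± 0.06 (adjusted p = 0.0695) for Idh3a and 0.24 ± 0.11 (adjusted p = 0.159) for Cs, and Idh1, the cytosolic NADP-dependent enzyme, was the member of the cycle with a negative value (-0.04 ± 0.08 at adjusted p = 0.790).

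These genotype calls were less firm than those of Hk2 and Slc2a1. With only the 6 NS libraries in the fit, 0 members were past the adjusted threshold, and 8 of all genes were. At an unadjusted p under 0.05 there were 23 members, against 26.2% of all genes. Leaving out a single library left 1 member past the test without WT NS replicate 3 or replicate 4, and 2 without TNFR2-/- NS replicate 2 or replicate 5. Ldhb stayed past the test in all 12 fits that left out 1 library. The summed astrocyte marker level was also higher in the libraries labelled TNFR2-/-, most in replicate 5. Against WT NS, all 6 markers had positive log2 fold changes, with Gja1 (0.92 ± 0.24 at adjusted p = 0.0370) and Slc1a3 (0.52 ± 0.10 at adjusted p = 0.0194) past the test. Without both libraries of TNFR2-/- replicate 5, 14 members were past the test, all higher, against 2.79% of all genes past it and higher. This was the top of a range of 0 to 14 over all fits that left out a library or a whole culture. In the TNFR2-/- NS libraries that remained, the summed astrocyte marker level was still at least 10499.7 FPKM, against at most 8420 FPKM in WT NS. Mature oligodendrocyte markers had positive values at rest in 6 of 6 (median 0.41), and mural and fibroblast markers had negative ones in 4 of 5 both at rest (median -0.62) and after stimulation (median -1.02), and none of these was past the test between genotypes. The part of these other cells' RNA in the genotype differences was not tested.

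**Figure D5:**
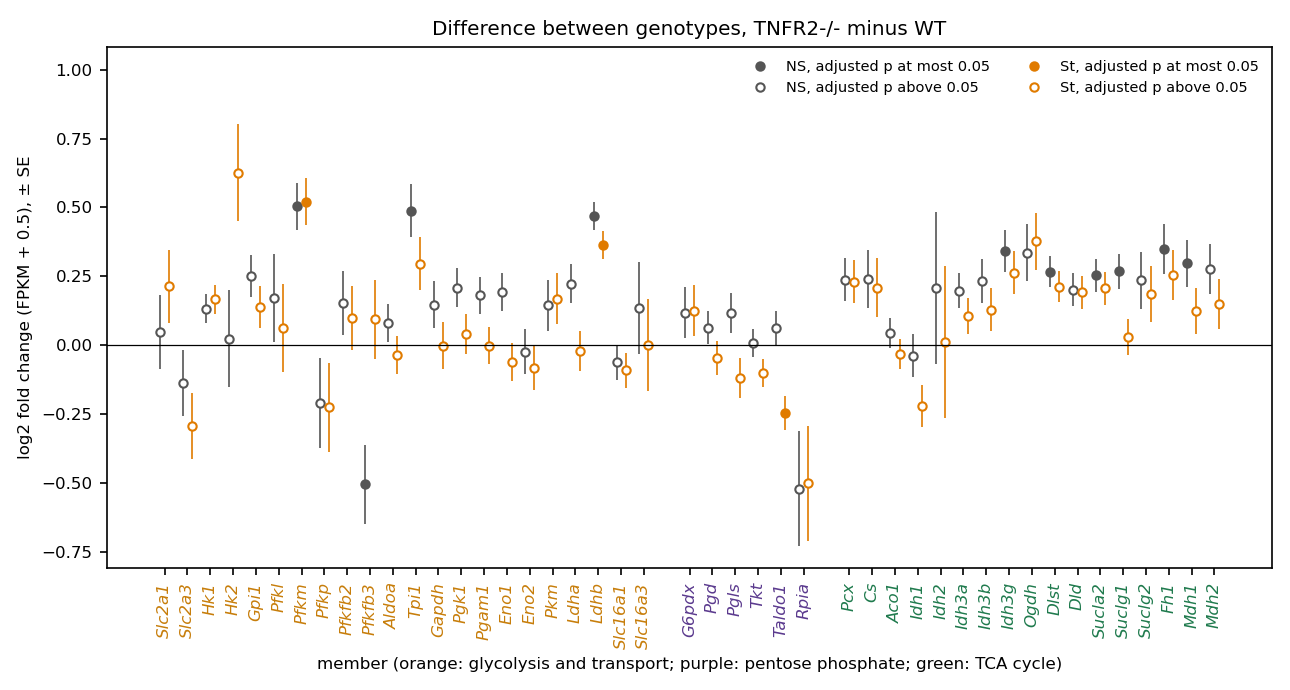
Log2 fold change of each member between TNFR2-/- and WT with its SE, in NS (grey) and St (orange) libraries, with filled points where the adjusted p was at most 0.05. Above 0 lie 16 of 17 TCA members in NS and 15 of 17 in St, Pfkm and Ldhb are past the test in both, and Hk2 (0.63 in St) and Rpia (-0.52 in NS) are large but not past it.

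In stimulated cells, Pfkm and Ldhb were higher and Taldo1 was lower in TNFR2-/- OPCs. In TNFR2-/- St against WT St, these 3 of 45 were past the test, a share near the 5.45% of all genes (2.7% higher and 2.75% lower) and the 7.19% of genes with at least 250 reads. None was differentially expressed, where 1.8% of all genes were. Pfkm had 602, 663 and 636 FPKM in WT St and 849, 888 and 995 FPKM in TNFR2-/- St (0.52 ± 0.09 at adjusted p = 0.0160). Ldhb had 381, 349 and 379.6 FPKM and 481, 476 and 469.7 FPKM (0.36 ± 0.05 at adjusted p = 0.0102). Both thus kept the higher level seen at rest. Taldo1 had 515, 471 and 529 FPKM and 414, 437 and 425 FPKM, and was lower in TNFR2-/- St (-0.25 ± 0.06 at adjusted p = 0.0488). Library groups did not overlap for 8 of 22 glycolysis, 4 of 6 pentose phosphate and 8 of 17 TCA members, against 32.7% of all genes.

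By pathway, the order seen at rest held in stimulated cells. Of the TCA members, 15 of 17 were positive, against 49.4% of all genes, none was past the test and the median was 0.19. By library, the median log2 level of TCA members relative to WT NS was 0.22, 0.13 and -0.02 in TNFR2-/- St. In WT St it was 0.002, -0.12 and -0.03, so TNFR2-/- replicate 5 lay within the WT range. In glycolysis 13 of 22 were positive with a median of 0.05, and in the pentose phosphate pathway 1 of 6 was positive with a median of -0.11, against -0.00337 for all genes. Under median-of-ratios scaling these medians were 0.20, 0.07 and -0.09. Hk2, at 40.8, 30.9 and 40.6 FPKM in WT St and 64.01, 47.9 and 62.4 FPKM in TNFR2-/- St, did not overlap between genotypes and had a log2 fold change of 0.63 ± 0.18 (adjusted p = 0.0625). Ogdh (0.38 ± 0.10 at adjusted p = 0.0583) and Dlst (0.21 ± 0.06 at adjusted p = 0.0538), both of the oxoglutarate dehydrogenase complex, lay just outside the threshold too. Further from it were Slc2a1 (0.21 ± 0.13 at adjusted p = 0.330), Pfkfb3 (0.09 ± 0.14 at adjusted p = 0.713), Ldha (-0.02 ± 0.07 at adjusted p = 0.883) and Slc16a3 (0.00 ± 0.17 at adjusted p = 1) of glycolysis, G6pdx (0.13 ± 0.09 at adjusted p = 0.406), and Cs (0.21 ± 0.11 at adjusted p = 0.239), Idh3a (0.11 ± 0.06 at adjusted p = 0.312) and Idh1 (-0.22 ± 0.08 at adjusted p = 0.108) of the TCA cycle. In the 6 St libraries alone, 0 members were past the adjusted threshold, and 67 of all genes were. At an unadjusted p under 0.05 there were 16 members, against 24.6% of all genes. NS and St libraries of the same number within a genotype deviated together, so the recurrence of Pfkm, Ldhb and the pathway order in both conditions is not independent evidence. The summed astrocyte marker level also stayed higher in TNFR2-/- St than in WT St, and its part in these values was not tested.

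Other genes of the same routes, taken from lists of 35 further glycolysis and transport genes (25 tested), 11 pentose phosphate genes (9 tested) and 21 TCA and related genes (19 tested), were examined in the same fit. At rest, 5 of the 19 further TCA genes were past the test and higher in TNFR2-/-, and 1 was lower, against 6.11% of all genes higher and 4.75% lower. Sdhc (0.32 ± 0.07 at adjusted p = 0.0211), Sdha (0.35 ± 0.08 at adjusted p = 0.0228) and Sdhd (0.37 ± 0.08 at adjusted p = 0.0204), subunits of succinate dehydrogenase, which links the cycle to the respiratory chain, were among the higher ones, as were Ogdhl (0.57 ± 0.11 at adjusted p = 0.0189) and the oxoglutarate carrier Slc25a11 (0.38 ± 0.07 at adjusted p = 0.0188). The lower one was Acly, which turns citrate into acetyl-CoA for lipids (-0.25 ± 0.06 at adjusted p = 0.0356). The median over the 19 was 0.30. For the members, the count past the test at rest changed with the libraries kept, and such fits are not given for these further genes. The summed astrocyte marker level was also higher in TNFR2-/- NS, and its part in these values was not tested. Of the 25 further glycolysis genes, 4 were past the test and higher and 1 lower, and of the 9 pentose phosphate genes 2 were higher. Slc2a4, the insulin-responsive transporter, ranged from 8.56 to 17.7 FPKM in WT NS and from 29.1 to 45.9 FPKM in TNFR2-/- NS (1.48 ± 0.35 at adjusted p = 0.0295). It was also higher in TNFR2-/- St than in WT St (1.88 ± 0.35 at adjusted p = 0.0218). Ldhd, a mitochondrial D-lactate dehydrogenase (0.72 ± 0.14 at adjusted p = 0.0188), and the transporter Slc2a12 (0.66 ± 0.17 at adjusted p = 0.0369) were the other differentially expressed genes of these lists at rest. Reads per library were 15 to 174 for Slc2a4, 43 to 127 for Ldhd and 57 to 125 for Slc2a12, so their fold changes are less certain.

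With stimulation, the largest changes among these lists were in single genes. Idnk, gluconokinase, which feeds gluconate into the pentose phosphate pathway, rose from 3.81, 3.48 and 3.87 FPKM in WT NS to 12.1, 12.99 and 13.4 FPKM in WT St and from 4.35, 4.83 and 5.12 FPKM in TNFR2-/- NS to 12.7, 12.8 and 14.2 FPKM in TNFR2-/- St. The log2 fold changes were 1.66 ± 0.09 (adjusted p = 3.62e-07) in WT and 1.38 ± 0.09 (adjusted p = 1.28e-06) in TNFR2-/-. Bpgm, which diverts a glycolytic intermediate, fell in both (-0.45 ± 0.07 at adjusted p = 0.000872 in WT and -0.56 ± 0.07 at adjusted p = 0.000139 in TNFR2-/-), as did Pfkfb4 (-0.51 ± 0.13 at adjusted p = 0.0214 and -0.71 ± 0.13 at adjusted p = 0.00258), a relative of Pfkfb3. Slc2a4, with 15 to 174 reads per library, fell in WT (-1.24 ± 0.35 at adjusted p = 0.0360). Of all genes, 7.7% rose and 8.36% fell in WT, and 9.62% rose and 16.3% fell in TNFR2-/-, where the lower calls depended on the scale. Of the further TCA genes, 3 of 19 fell in WT and 6 of 19 in TNFR2-/- and none rose, with Me2 (malic enzyme, -0.43 ± 0.06 at adjusted p = 0.000471 and -0.48 ± 0.06 at adjusted p = 0.000144) and Acly (-0.38 ± 0.06 at adjusted p = 0.00218 and -0.40 ± 0.06 at adjusted p = 0.000991) leading. Of the further glycolysis genes, 3 of 25 fell and none rose in WT, and 6 fell and 2 rose in TNFR2-/-. Of the further 9 pentose phosphate genes, 1 rose and 1 fell in WT, and 1 rose and 2 fell in TNFR2-/-. Between St groups, 1 of the 25, 0 of the 9 and 1 of the 19 were past the test, against 5.45% of all genes, and no gene of these lists was past it for the interaction.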

How the data were processed

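RNA of 12 OPC libraries was sequenced by the study as read pairs of 100 bases. Per the labels, processing used Trim Galore, STAR, edgeR and GRCm38. The deposited values are FPKM per gene, normalised by the authors, in 1 table for the NS and 1 for the St libraries, each with both genotypes and the same 45792 entries. The 99 symbols that name several entries were left out. Each FPKM was a whole multiple of 1 read's worth for all 26636 genes above 0 in at least 2 libraries (tolerance 0.001 read), so reads were recovered. Each library was scaled to its own total, and a single divisor per gene served both tables, so NS and St values were compared across them. The deposited lengths did not follow exon lengths, so levels between genes use GENCODE M21 exons (GRCm38).

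The 18081 genes whose mean reached 0.1 FPKM entered limma 3.58.1 (R 4.3.3) on log2(FPKM + 0.5), with 4 group means, a trended prior and Benjamini-Hochberg adjustment over all of them. NS and St libraries of the same number deviated together within each genotype (correlation of deviations 0.34 to 0.65) and not between genotypes. The fit was tested on simulated data. Alternatives were 2 pseudocounts, 2 filters, other scalings, library weights, voom on recovered reads, replicate blocks and each library left out.

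Members and lists were chosen with earlier results of these data known. A few genes of the further TCA list are not reported here and were left out of its counts. Named genes are those past the test, at most 12 per comparison by fold, and a fixed set of 10. Others were chosen after their values were seen.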

Additional observations from a re-analysis of the deposited data

Results flagged for a closer look

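Ldha, the lactate dehydrogenase subunit associated with lactate production, is given here because its 3 WT replicate comparisons all went up with stimulation and its 3 TNFR2-/- comparisons all went down. The log2 fold change was 0.12 in WT and -0.13 in TNFR2-/-, and their difference was -0.24 ± 0.10 (adjusted p = 0.600) by limma, with an unadjusted p of 0.0368. With the replicate block the adjusted p of the difference was 0.0968. The sign in TNFR2-/- lay near the shift of all genes there, and with the block and median-of-ratios scaling the TNFR2-/- change was -0.01 and the WT change 0.17.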

How the results depend on the processing

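Slc2a1 and Hk2 were past the test after stimulation in both genotypes under all 14 other settings and all 12 fits without 1 library. With limits of 11 to 27 reads, no change of Slc16a3 could be read. Counts of members past the test moved most. In TNFR2-/- NS against WT NS the count was 6 under median-of-ratios scaling, 0 in the 6 libraries compared alone, 20 with library weights and 22 with a replicate block by number, and 0 to 14 with libraries or whole cultures left out. In WT St against WT NS it was 2 under median-of-ratios scaling, 11 with a replicate block by number, 17 and 11 with a fixed and a random replicate block within genotype, 8 with the fixed block and median-of-ratios scaling, and 2 to 5 with libraries left out. In TNFR2-/- St against TNFR2-/- NS it was 4, 32, 33 and 30 in the same order without the last, 7 in the 6 libraries alone and 6 to 16 with libraries left out. In TNFR2-/- St against WT St it was 5 with a filter of 1 FPKM, 0 in the 6 libraries alone, 10 with library weights, 16 with the block by number, 6 with the random block, 7 by voom and 0 to 6 with libraries left out. The interaction had 1 member (Taldo1) with the random replicate block. Block by number across genotypes rests on numbers that did not pair the libraries between genotypes.

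Median-of-ratios scaling, with or without the replicate block, moved the median log2 fold changes. For TNFR2-/- St against NS these became -0.030 for the TCA cycle, -0.039 for glycolysis and -0.080 for the pentose phosphate pathway. For WT St against NS they became 0.015 for glycolysis and 0.013 for the pentose phosphate pathway. For the interaction they became -0.048 and -0.052 for the same 2. The pentose phosphate median of TNFR2-/- NS against WT NS was 0.0061 with library weights and 0.0059 with the block by number. With libraries left out, medians ranged from 0.098 to 0.23 (TCA cycle, TNFR2-/- St against WT St), 0.086 to 0.16 (glycolysis, TNFR2-/- NS against WT NS), -0.063 to 0.026 (glycolysis, WT stimulation), -0.14 to -0.045 (glycolysis, interaction) and -0.17 to -0.083 (pentose phosphate, interaction).

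Single genes whose small change turned sign under median-of-ratios scaling, again with or without the block, were Cs (interaction, 0.026), G6pdx (0.070 in TNFR2-/- and 0.0060 in WT stimulation), Idh1 (WT stimulation, 0.028), Ogdh (0.014) and Slc16a3 (0.050, both TNFR2-/- stimulation) and, with no block, Hk2 (TNFR2-/- NS against WT NS, -0.016). Quantile normalization gave 0.013 for G6pdx in TNFR2-/- stimulation, -0.049 for Hk2 at rest and -0.0001 for Slc16a3 between St groups, where a pseudocount of 0.1 gave -0.012 and voom -0.021. The block by number gave -0.095 for Hk2 at rest. With libraries left out, the ranges that crossed 0 were, for the interaction, -0.12 to 0.078 (Cs), -0.041 to 0.080 (G6pdx), -0.046 to 0.14 (Ogdh) and -0.31 to 0.0072 (Slc16a3). In TNFR2-/- stimulation they were -0.090 to 0.030 (G6pdx) and -0.13 to 0.11 (Slc16a3), and at rest -0.13 to 0.13 (Hk2), -0.090 to 0.055 (Idh1) and -0.098 to 0.16 (Slc2a1). Between St groups they were -0.062 to 0.017 (Ldha) and -0.13 to 0.11 (Slc16a3), and in WT stimulation -0.0086 to 0.30 (Slc16a3).

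Without the replicate block, the Ldha/Ldhb change of 0.12 passed its permutation test and the Pfkp/Pfkm change of 0.22 did not. With no pseudocount the Slc16a3/Slc16a1 change was 0.038. With 5 pairs the exact test cannot pass 0.05, and leaving out a pair gave ranges of 1.806 to 1.999 (Hk2/Hk1), 0.77 to 0.96 (Pfkfb3/Pfkfb2), 0.18 to 0.26 (Pfkp/Pfkm), 0.96 to 1.06 (Slc2a1/Slc2a3) and -0.13 to 0.0070 (Slc16a3/Slc16a1). The causes of these changes were not tested. Leaving out whole cultures (both libraries of a number) and the block with median-of-ratios scaling were chosen after seeing the data.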

Other observations

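Genes that are known to regulate these routes were taken as a separate list, and values below are log2 fold changes ± SE from limma, for WT and then TNFR2-/- stimulation where 2 are given. Of 26 regulators, all of them tested, 7 were past the test and higher and 8 lower with stimulation in WT, and 9 higher and 9 lower in TNFR2-/-, against 16.1% and 26% of all genes past the test in either direction. Between genotypes, 4 were higher and 1 lower at rest, against 10.9% of all genes past the test, and 4 higher and 2 lower after stimulation, against 5.45%. Arrdc4, an arrestin that restrains glucose uptake, had 57.8, 67.1 and 61.5 FPKM in WT NS and 365, 301 and 300.1 FPKM in WT St, with a log2 fold change of 2.36 ± 0.11 (adjusted p = 1.41e-07) in WT and 3.07 ± 0.11 (adjusted p = 1.84e-08) in TNFR2-/-. Its relative Txnip, which also lowers glucose uptake, rose by 1.80 ± 0.37 (adjusted p = 0.00758) and 1.74 ± 0.37 (adjusted p = 0.00653). Of the hypoxia pathway, Hif1a rose by 0.48 ± 0.07 (adjusted p = 0.000630) in WT and 0.78 ± 0.07 (adjusted p = 1.26e-05) in TNFR2-/-, Egln3 by 0.70 ± 0.09 (adjusted p = 0.000370) and 0.99 ± 0.09 (adjusted p = 2.27e-05), and Bnip3 by 0.75 ± 0.11 (adjusted p = 0.000631) and 0.53 ± 0.11 (adjusted p = 0.00437), while Vegfa (-0.60 ± 0.09 at adjusted p = 0.00135 and -0.53 ± 0.09 at adjusted p = 0.00216) and Egln1 (-0.35 ± 0.04 at adjusted p = 0.000145 and -0.48 ± 0.04 at adjusted p = 1.07e-05) fell. Genes of the hypoxia pathway thus moved in both directions. Between St groups, Egln3 was higher in TNFR2-/- (0.65 ± 0.09 at adjusted p = 0.00994).

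The coactivators of mitochondrial genes, Ppargc1a (-1.01 ± 0.08 at adjusted p = 1.19e-05 and -0.73 ± 0.08 at adjusted p = 0.000115) and Ppargc1b (-0.93 ± 0.17 at adjusted p = 0.00393 and -0.90 ± 0.17 at adjusted p = 0.00342), fell in both genotypes with stimulation. Their partner Esrra also fell (-0.26 ± 0.07 at adjusted p = 0.0267 and -0.30 ± 0.07 at adjusted p = 0.00884). At rest, Esrra (0.41 ± 0.07 at adjusted p = 0.0146) and Ppargc1a (0.30 ± 0.08 at adjusted p = 0.0459) were higher in TNFR2-/- NS than in WT NS. Ppargc1a had 9.66, 9.25 and 8.10 FPKM in WT NS, 11.6, 10.8 and 11.1 FPKM in TNFR2-/- NS, 4.27, 4.17 and 4.18 FPKM in WT St and 6.32, 6.37 and 6.99 FPKM in TNFR2-/- St. Trp53 rose in both genotypes with stimulation (1.16 ± 0.07 at adjusted p = 7.78e-07 and 1.02 ± 0.07 at adjusted p = 1.85e-06), and Mycn fell (-1.91 ± 0.34 at adjusted p = 0.00297 and -1.32 ± 0.34 at adjusted p = 0.0162).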
